A study of Mus musculus with 6 samples.

Results

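The genes described here encode the enzymes that write DNA methylation in the mouse oocyte, those that remove it, and the proteins that guide or shield the mark. Probes were chosen by their annotation to a single symbol among 10 listed genes, Dnmt1, Dnmt3a, Dnmt3b, Dnmt3l, Uhrf1, Tet1, Tet2, Tet3, Dppa3 and Zfp57. Of these, 6 genes with 7 probes were on the array, which held 33012 probes and 13840 genes with a symbol. No probe carried the symbol or gene identifier of Tet1, Tet2, Tet3 or Zfp57, so the demethylating dioxygenases and the imprint-binding zinc finger protein are not analysed here. Each array measured a single oocyte, with 3 oocytes in each of 2 groups. The Ago2-deficient mature oocytes (below, the mutant oocytes) came from [Ago2F/F, Zp3-Cre] females, in which Cre made under the Zp3 promoter deletes the floxed allele in growing oocytes. The other group held wild-type oocytes that the labels call GV (germinal vesicle, the arrested stage before maturation), although they also say that these cells were taken from oviducts of adult females. The labels give cumulus removal with hyaluronidase for the wild-type group, and the methods give it for ovulated oocytes. Genotype and stage cannot be told apart, and separate animals are not stated in the labels, so p-values measure the spread between these cells. The methods put an equal amount of amplified cDNA from each sample into labelling, so signals do not measure RNA per oocyte. A lower signal cannot be told apart from a less efficient amplification of the RNA.

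Background on these proteins helps in reading the values. In growing oocytes the de novo methyltransferase Dnmt3a, together with its cofactor Dnmt3l, which has no catalytic activity of its own, sets methylation across transcribed genes and at the maternal imprints. Dnmt1, guided by Uhrf1, copies methylation after DNA replication, and the oocyte makes a shorter form of it from a start upstream of the somatic one. Dppa3, also called Stella, is a maternal protein that limits methylation in the oocyte and shields the maternal genome from Tet3 in the zygote. Dnmt3b is a second de novo enzyme, best known from the early embryo.

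The sequence upstream of the outermost annotated start of each changed gene is shown because these genes have several annotated starts or a CG-rich one, and which transcript a probe reads is unknown here. RefSeq (build GRCm38.p6) gave promoter windows for 9 of the 10 genes, with 3 for Dnmt1, 3 for Dnmt3l and 1 for Dnmt3b, and Dppa3 had no entry. The stretches are the 250 bases before the start, 5′ to 3′ on the gene's strand, with each CG, the site that these enzymes methylate, in capitals. They lie at chr9:20959889-20960138 (minus strand) for Dnmt1, chr2:153649199-153649448 (plus strand) for Dnmt3b and chr10:78042037-78042286 (plus strand) for Dnmt3l.
Dnmt1: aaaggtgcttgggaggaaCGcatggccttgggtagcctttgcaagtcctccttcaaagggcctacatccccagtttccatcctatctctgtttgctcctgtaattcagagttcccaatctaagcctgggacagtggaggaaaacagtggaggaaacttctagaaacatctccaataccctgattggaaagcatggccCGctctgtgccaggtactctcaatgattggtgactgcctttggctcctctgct
Dnmt3b: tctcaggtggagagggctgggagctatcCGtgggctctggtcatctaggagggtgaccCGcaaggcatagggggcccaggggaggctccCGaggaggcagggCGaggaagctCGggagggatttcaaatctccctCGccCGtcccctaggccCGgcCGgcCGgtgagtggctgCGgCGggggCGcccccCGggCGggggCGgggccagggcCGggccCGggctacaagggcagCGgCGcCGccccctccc
Dnmt3l: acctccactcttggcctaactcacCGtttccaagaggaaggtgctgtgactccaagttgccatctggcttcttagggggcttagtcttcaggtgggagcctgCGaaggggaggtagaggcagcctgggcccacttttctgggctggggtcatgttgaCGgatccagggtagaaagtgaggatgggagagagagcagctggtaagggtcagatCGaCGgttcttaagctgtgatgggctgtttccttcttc

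These stretches differed in CG content. The Dnmt1 stretch held 2 CG and the Dnmt3l stretch 5, and 81.2% and 55.6% of all 32851 windows of this length held at least as many. The Dnmt3b stretch held 21, which 16.3% of windows matched or passed. The other annotated starts of Dnmt1, further downstream, had 7 and 26 CG. At least 1 CG was found in 92.1% of windows, and the counts describe sequence only, since methylation was not measured.

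Fewer probes were detected on the arrays of the mutant oocytes, and what lies behind this was not tested. A probe was taken as detected where its signal-to-noise reached 3. From 4620 to 6798 probes passed this limit on the Ago2-deficient arrays, and from 10650 to 11334 on the GV arrays. Probes that did not pass had a median deposited signal of 145 to 231 on the Ago2-deficient and 70.8 to 83.3 on the GV arrays. All 15 oocyte markers were detected in every GV oocyte and 11 of them in every Ago2-deficient oocyte, with Figla, Kit and Zp2 below the limit in all 3 of the latter. Their summed level, on the linear quantile-normalized scale, was 2309741 to 2618118 against 6359311 to 6903423. Of 17 cumulus and granulosa markers on the array, 2 to 5 were detected per Ago2-deficient array and 3 to 5 per GV array, and their summed level was higher in the Ago2-deficient oocytes, at 14850 to 40917 against 5402 to 7318. Among them Btc, Cyp11a1, Ereg, Foxl2 and Gja1 were detected in mutant oocytes and in no GV oocyte, with Btc and Ereg in all 3 mutants, at log2 differences of 6.15 and 4.65. Hsd17b1, Inha, Kitl and Star were detected in GV oocytes and in no mutant, and Amh, Cd44, Fshr, Has2, Tnfaip6 and Vcan in none. Of 6 markers of other ovarian and blood cells on the array, 0 to 1 were detected per Ago2-deficient array and 2 per GV array. Their summed levels overlapped, at 1443 to 3851 against 1227 to 1767. Col1a1 and Pecam1 among them were detected in GV oocytes and in no mutant. The Ago2 probe itself passed the limit in 1 GV oocyte only, at a log2 signal of 6.49 to 6.94 in the mutants and 6.25 to 7.88 in the GV oocytes, and the groups overlapped. Its place in the gene relative to the deletion is unknown here, and the probe therefore checks nothing about the genotype.

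Of the members, 4 were measured above the detection limit on all 3 arrays of a group and were tested, and all 4 differed between the groups. Dnmt3l and Dppa3 were lower in the mutant oocytes, and Dnmt1 and Dnmt3b were higher with the scaling of the authors but lost their calls under 2 other scalings, as given below. Calls required a limma p, adjusted by Benjamini-Hochberg over all tested probes, below 0.05 and a change of more than 2-fold in the quantile-normalized log2 values of the authors. By this rule 62.2% of all 7915 tested genes were called, 17.4% as higher and 44.8% as lower, so a call in itself does not set the members apart. The groups did not overlap in 70.4% of tested genes, and in all 4 of these members. The filter left out members too dim to pass in either group, so the tested members are not the whole set. Dnmt1 passed through the GV oocytes only, although its mean log2 signal was lower there (8.55 against 10.48 in mutants). In mutant replicate 1 its signal-to-noise was 2.47, below the limit.

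**Figure D1:**
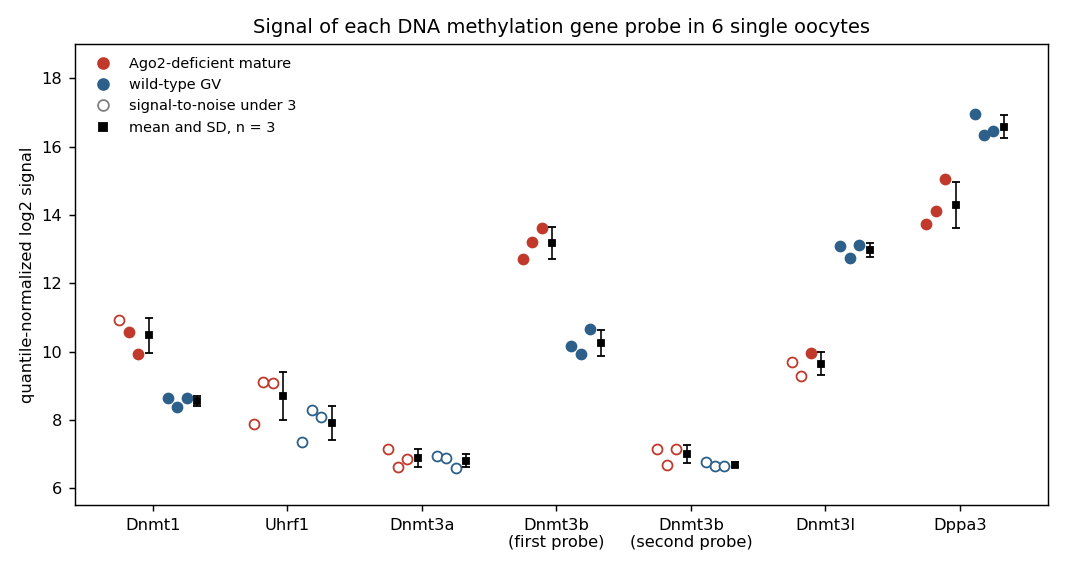
Quantile-normalized log2 signal (vertical axis) of the 7 probes of 6 genes in single mutant (Ago2-deficient mature) oocytes and GV oocytes; each circle is 1 array, open where the signal-to-noise was under 3, and each square with its bar gives mean and SD over 3 arrays. The groups do not overlap for Dnmt1, the first Dnmt3b probe, Dnmt3l and Dppa3, while Uhrf1, Dnmt3a and the second Dnmt3b probe have open circles alone.

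Among the de novo group, the cofactor Dnmt3l was lower and the enzyme Dnmt3a gave no detected level. The enzyme Dnmt3b was higher by 1 of its 2 probes with the scaling of the authors. Dnmt3l is described first. Its log2 signal was 9.69, 9.28 and 9.96 in the mutant oocytes, while the GV oocytes read 13.08, 12.74 and 13.11. All GV values lay above all Ago2-deficient values, and the gap between the groups was wider than the range within either. The means were 9.64 ± 0.34 and 12.97 ± 0.20 (SD, n = 3 arrays in each group), which is 10.1-fold lower in the mutants (log2 difference -3.33, standard error 0.34, limma adjusted p = 0.000362). The signal-to-noise ran from 55.6 to 68 in GV oocytes. In the Ago2-deficient oocytes it was 1.55, 2.92 and 5.61, so that only replicate 3 was above the detection limit and the difference rests in part on signals below it. Of all tested genes, 16.5% had a lower log2 difference than Dnmt3l, a share that depends on the filter.

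Dnmt3b was read by 2 probes that share the same transcript accessions in the array's annotation. The first (914927) was detected in all 6 oocytes, with log2 values of 12.71, 13.20 and 13.62 in mutants and 10.17, 9.92 and 10.65 in GV oocytes. Every Ago2-deficient value was above every GV value on this scale. The means were 13.18 ± 0.46 and 10.24 ± 0.37 (SD, n = 3), which is 7.64-fold higher in the mutants (log2 difference 2.93, standard error 0.39, limma adjusted p = 0.000927). Of all tested genes, 7.35% had a higher log2 difference, a share that depends on the filter. The median was -1.39 over all tested genes, but 0.83 among the 2497 detected on all 6 arrays, as this probe was. The second probe (671858) was below the detection limit in all 6 oocytes, at 6.69 to 7.15 and 6.65 to 6.77, and its groups overlapped. The increase of Dnmt3b therefore rests on a single probe.

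Dnmt3a, the catalytic partner of Dnmt3l in oocytes, was not detected. Its probe had log2 values of 7.15, 6.62 and 6.86 in mutants and 6.94, 6.90 and 6.58 in GV oocytes, with a signal-to-noise of 0.77 or less on each array. The deposited signal was 0.75 to 1.08 times the median of the undetected probes, so that the probe gave no level for either group. With no filter on dim probes the mutants differed by 0.07 on the log2 scale (standard error 0.39, limma adjusted p = 0.930).

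For maintenance methylation, Dnmt1 was higher with the scaling of the authors and Uhrf1 gave no detected level. Dnmt1 read 10.93, 10.58 and 9.93 on the log2 scale in mutants and 8.64, 8.37 and 8.64 in GV oocytes. The lowest Ago2-deficient value was above the highest GV value, and the spread was wider among the Ago2-deficient oocytes. The means were 10.48 ± 0.51 and 8.55 ± 0.16 (SD, n = 3), which is 3.81-fold higher in the mutants (log2 difference 1.93, standard error 0.37, limma adjusted p = 0.00423), with 12.9% of tested genes further up. That share, too, depends on the filter. The signal-to-noise was 2.47, 7.7 and 5.21 in mutants and 6.77, 10.1 and 7.63 in GV oocytes. The highest log2 value thus came from the oocyte (Ago2-deficient replicate 1) whose probe was below the detection limit, and without that array the difference was 1.70. The summed granulosa marker level given above was higher in the same group as Dnmt1 and Dnmt3b, and its part in their values was not tested.

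Uhrf1, which brings Dnmt1 to newly replicated DNA, was below the detection limit in all 6 oocytes. The log2 values were 7.88, 9.11 and 9.08 in mutants and 7.36, 8.28 and 8.09 in GV oocytes. The groups overlapped, and the signal-to-noise was at most 0.44. With no filter the mutants differed by 0.78 on the log2 scale (standard error 0.51, limma adjusted p = 0.396).

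Dppa3, the maternal shield against demethylation, was lower in the Ago2-deficient oocytes and detected in all 6. It read 13.73, 14.12 and 15.04 on the log2 scale in mutants and 16.96, 16.35 and 16.44 in GV oocytes. The brightest Ago2-deficient oocyte (replicate 3) was below the dimmest GV oocyte. The means were 14.30 ± 0.67 and 16.59 ± 0.33 (SD, n = 3), which is 4.88-fold lower in the mutants (log2 difference -2.29, standard error 0.44, limma adjusted p = 0.00424). The Ago2-deficient values spanned a wider range than the GV values, and without replicate 3 of that group the difference was -2.66. Of all tested genes, 32.7% had a lower log2 difference, a share that depends on the filter.

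The decreases and the increases behaved differently when the scaling between arrays was changed. On the deposited signal, which is not scaled between arrays, Dnmt3l read 569, 644 and 543 in mutants and 21728, 14787 and 17878 in GV oocytes, which by the ratio of means is 31.0-fold lower. Dppa3 read 3626, 13378 and 18699 against 208267, 138597 and 134736, or 13.5-fold lower. Both decreases were thus larger on the deposited signal than after quantile normalization. Dnmt1 read 864, 1192 and 537 against 470, 290 and 346, and the first Dnmt3b probe 1888, 6861 and 6361 against 2187, 1350 and 2519. By the ratio of means these were 2.3-fold and 2.5-fold higher. The undetected probes of Dnmt3a, Uhrf1 and the second Dnmt3b probe had like ratios, at 2.4, 2.2 and 2.8. For Dnmt3b, Ago2-deficient replicate 1 lay within the GV range on this scale.

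Set against the level of undetected probes on the same array, the mutant and GV values of Dnmt1 and Dnmt3b overlapped. The Dnmt1 signal was 4.28 ± 0.97 times that level in mutants and 4.76 ± 0.96 times in GV oocytes (SD, n = 3). For the first Dnmt3b probe the ratios were 27.7 ± 18.1 and 26.4 ± 9.05. For Dnmt3l they were 3.04 ± 0.65 and 235 ± 38, and for Dppa3 68.5 ± 57.1 and 2064 ± 380. The decreases were therefore present on this scale without overlap. With cDNA amounts made equal before labelling, none of these scales measures the RNA content of an oocyte. Which scale is nearer to the share of each RNA in an oocyte was not tested.

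**Figure D2:**
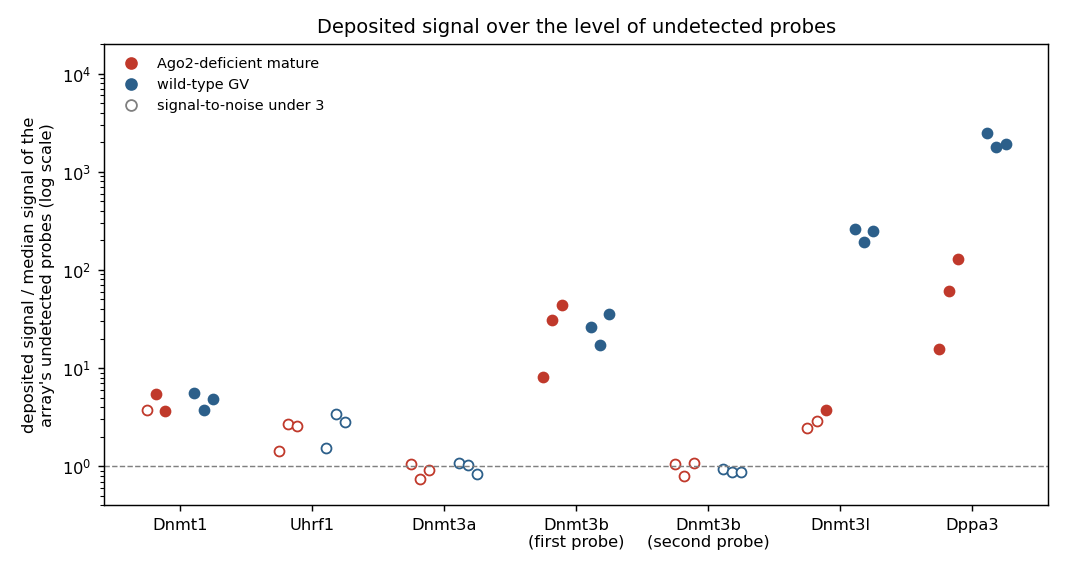
Deposited signal of each probe divided by the median signal of the undetected probes of its array (vertical axis, log scale, dashed line at 1), by group; circles are single arrays, open where the signal-to-noise was under 3. Dnmt1 and the first Dnmt3b probe overlap between the groups, at 3.70 to 5.41 against 3.74 to 5.64 and at 8.17 to 43.9 against 17.4 to 35.6, while Dnmt3l and Dppa3 do not overlap.

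The same split appeared in the fits, of which that with a common median is largely no separate check. Most probes of each array were undetected, so the array medians were near the undetected levels used above. They ran from 168 to 258 on the Ago2-deficient and from 93.2 to 116 on the GV arrays. Dnmt3l and Dppa3 were called as lower under each alternative in which they could be tested, with log2 differences of -6.04 to -2.15 and -5.13 to -2.00. Dnmt1 was no longer called when arrays shared a common median (log2 difference 0.08, adjusted p = 0.885 from limma) and unscaled (1.18, adjusted p = 0.0718), and Dnmt3b with the same settings (0.05, adjusted p = 0.940, and 1.16, adjusted p = 0.102). Both stayed called with cyclic loess, at 2.90 and 3.97, and after centring on probes detected on all 6, at 2.29 and 2.27. The members were thus 2 higher and 2 lower with the authors' scaling, and 0 higher and 2 lower with a common median or unscaled. The split of all genes was 311 higher against 6223 lower with a common median, and 609 against 4778 unscaled. The median log2 difference of all tested genes moved with the scaling too, from -1.39 with the authors' values to -3.08 with a common median and -0.36 with cyclic loess. Relative to that median Dnmt1 was at 3.14 to 3.32 and Dnmt3b at 3.13 to 4.33 over 6 scalings, and Dnmt3l at -2.96 to -1.79 and Dppa3 at -2.05 to -0.90. A common median, no scaling and centring on probes detected on all 6 differ only by a shift of whole arrays. Their relative values are therefore equal by construction (3.16 for Dnmt1, 3.13 for Dnmt3b) and are not separate checks. The median is that of genes passing the filter, and 5171 of the 7915 had been detected on all GV arrays but not on all Ago2-deficient arrays. With the authors' values the median depended on the filter in sign as well. Among the 2497 genes detected on all 6 arrays it was 0.83, with 1128 called as higher and 543 as lower. With no filter it was 0.13, with 1705 higher and 2960 lower.

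**Figure D3:**
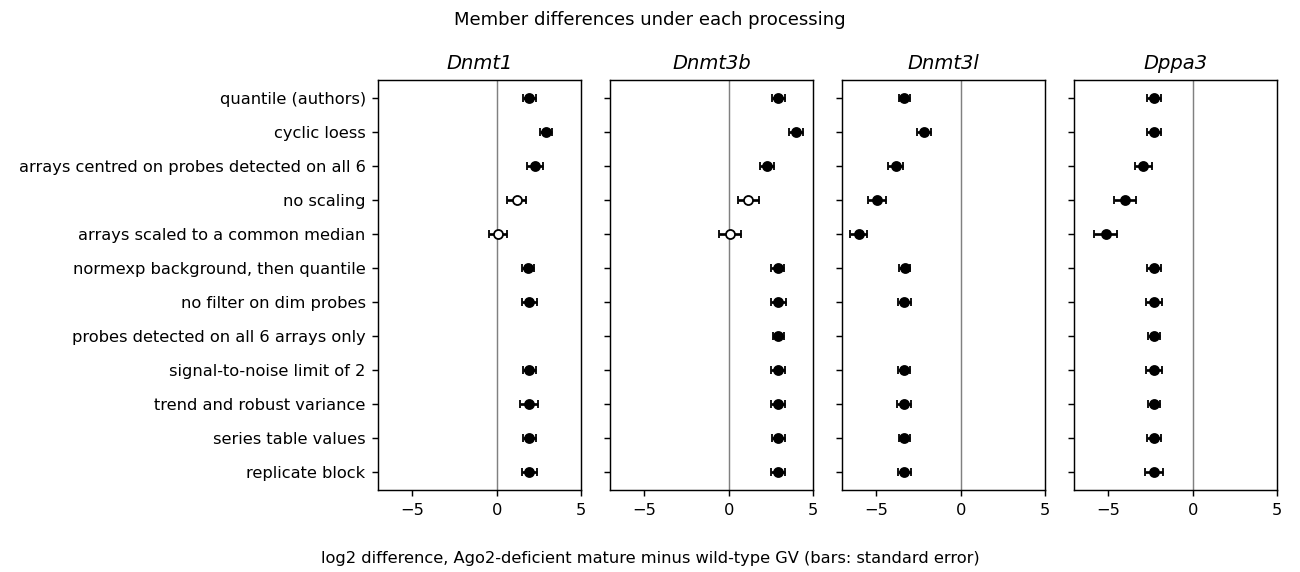
Log2 difference (horizontal axis, mutant minus GV) of the 4 tested members under the authors' quantile values and 11 alternatives (rows); bars are standard errors, filled circles are called and open circles are not, and an empty row means that the gene did not pass that filter. Dnmt3l and Dppa3 lie left of 0 in every row shown, whereas Dnmt1 falls to 0.08 and Dnmt3b to 0.05 where arrays share a common median.

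A comparison of members within each array does not depend on how whole arrays are shifted. For each oocyte the log2 ratio of the deposited signals of a pair was set to an average of 0 over the GV oocytes. The ratio of Dnmt3b to Dnmt3l was then 4.93, 6.61 and 6.75 in mutants and -0.11, -0.26 and 0.37 in GV oocytes. Dnmt1 to Dnmt3l stood at 6.24, 6.52 and 5.62 against 0.10, -0.04 and -0.06. Dnmt3b to Dppa3 stood at 5.39, 5.37 and 4.78 against -0.24, -0.35 and 0.59. Both probes of the last pair were detected on all 6 arrays, so that its members changed unequally, which does not show whether either stayed constant. In the pairs with Dnmt3l the mutant ratios rest on signals below the detection limit, in replicates 1 and 2 for Dnmt3l and in replicate 1 for Dnmt1, and their sizes are approximate. The pairs Dnmt1 to Dnmt3b (-1.13 to 1.31) and Dnmt3l to Dppa3 (-1.97 to 0.46) spanned 0 in the Ago2-deficient oocytes. These ratios were formed after the values of the members were known and are given without a test.

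Genes with the most similar profiles were found by the root mean square difference of log2 values over the 6 arrays, after subtracting each probe's own mean, among 4567 other tested genes with a symbol. Dnmt3l was nearest to Rnf130 (0.12), 2700062C07Rik (0.14) and the piRNA pathway gene Piwil1 (0.14). Dppa3 was nearest to the proteasome subunit gene Psmb2 (0.15), Fbxo38 (0.15) and Pdik1l (0.16). Dnmt1 lay nearest to Scd4 (0.10), Hgh1 (0.11) and the zinc transporter gene Slc39a1 (0.20), and Dnmt3b to Lypla1 (0.14), Msl1 (0.23) and Rnf6 (0.24). The measure itself selects genes with a like difference between the groups.

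Partners of DNA methylation, the readers, recruiters and chromatin factors that work with these enzymes, were near or below the share of all genes in their calls. Of 34 listed genes 21 were on the array and 12 were tested, of which 5 were lower, 1 was higher and 6 were not called, and the median log2 difference was -0.47 beside -1.39 for all tested genes. The 50% called compares with 62.2% of all tested genes, and the split of 1 higher and 5 lower with 17.4% and 44.8%. Trim28, the corepressor through which KRAB zinc finger proteins such as Zfp57 keep imprints methylated, read 9.87 ± 1.01 in mutants and 12.52 ± 0.17 in GV oocytes on the log2 scale (SD, n = 3, log2 difference -2.65, limma adjusted p = 0.0053), and was detected in 2 mutant oocytes. Mbd3, a subunit of the NuRD complex, differed by -1.82. The histone H3 methyltransferase gene Nsd1 differed by -1.94, but lost its call without GV replicate 2 (adjusted p = 0.0624 from limma), without GV replicate 3 (adjusted p = 0.0543) and with no filter (adjusted p = 0.0533). Rbl1 was detected in no Ago2-deficient oocyte and was at least 3.64-fold lower on the quantile scale of the authors. The call of Rbl1 was lost unscaled (-1.21) and after centring on probes detected on all 6 (-0.11). The others that were called, named after their values were seen, were Lin28a, an RNA-binding protein, at -1.60, and Pcna, the replication clamp, at 1.48. Lin28a lost its call when any GV array was left out (limma adjusted p of 0.0799 to 0.0993) and went to 0.08 with cyclic loess, and Pcna went to -1.09 with a common median and 0.02 unscaled. Daxx (0.81) and Ctcf (-0.24) had the highest signal among the members not called, and both were called as lower where arrays shared a common median (-2.37 and -3.47), Ctcf also unscaled (-2.37) and with centring on probes detected on all 6 (-1.26). The split of 1 higher and 5 lower was 0 and 10 with that scaling, 0 and 7 without scaling, 2 and 4 with cyclic loess and 2 and 5 with normexp background correction.

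Genes of active demethylation and base excision repair, which can replace oxidised or deaminated methylcytosine, divided between higher and lower calls much as all genes did. Of 30 listed genes 23 were on the array and 11 were tested, with 6 lower, 2 higher and 3 not called, at a median of -1.21. Of the called genes 25% were higher, beside 28% over all genes, and 72.7% of the list was called beside 62.2%. Elp3, a subunit of Elongator that has been linked to demethylation of the paternal genome in the zygote, fell from 16.14 ± 0.06 in GV to 11.07 ± 0.33 in Ago2-deficient oocytes (SD, n = 3), a log2 difference of -5.06 (adjusted p = 0.000121 from limma), and was detected in all 6 oocytes. Lig1, the replicative DNA ligase, rose from 10.61 ± 0.86 to 16.04 ± 0.14, a log2 difference of 5.43 (adjusted p = 0.000247 from limma), and was called as higher under each scaling tried, at 2.77 to 6.19. Fen1, a flap endonuclease, was detected in no Ago2-deficient oocyte and was at least 8.12-fold lower on the quantile scale of the authors. It was not called with cyclic loess (-1.40, adjusted p = 0.0725 from limma), and differed by -3.64 without Ago2-deficient replicate 1. Idh3a, of the mitochondrial isocitrate dehydrogenase, differed by -3.10 and was detected in 1 Ago2-deficient oocyte. It differed by -4.06 without Ago2-deficient replicate 1 and lost its call without GV replicate 1 (adjusted p = 0.0533 from limma), without GV replicate 2 (adjusted p = 0.0537) and with cyclic loess (adjusted p = 0.101). Apex2, an endonuclease of base excision, was the other higher gene at 1.53 and was named after its value was seen. With a common median Apex2 was called as lower (-1.78), and it was not called without scaling (-0.67) or after centring on probes detected on all 6 (0.44). Apobec2 (-0.28) and Neil3 (0.50) were not called, and Apobec2 was called as lower under a common array median (-3.52), unscaled (-2.41) and after centring on probes detected on all 6 (-1.30), and Neil3 as higher with cyclic loess (1.89) and without mutant replicate 1 (1.81). The split of 2 higher and 6 lower was 1 and 9 with a common median, 1 and 7 without scaling, 3 and 3 with cyclic loess and 1 and 6 after centring on probes detected on all 6, and the number called was 5 without GV replicate 1 or without GV replicate 2.

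Enzymes that make S-adenosylmethionine, the methyl donor of all Dnmt enzymes, and that clear its product had a median difference close to that of all genes. Of 24 listed genes 20 were on the array and 12 were tested, with 7 lower, 1 higher and 4 not called, at a median of -1.50 beside -1.39 for all tested genes. The share called was 66.7% beside 62.2%, and 12.5% of the calls were higher beside 28%. Ahcy, which hydrolyses S-adenosylhomocysteine, the inhibitory product of methylation, read 9.45 ± 1.03 in mutants and 14.00 ± 0.22 in GV oocytes on the log2 scale (SD, n = 3, log2 difference -4.55, limma adjusted p = 0.000666), and was detected in 2 mutant oocytes. Mat1a, a methionine adenosyltransferase gene best known from liver, was at least 21.7-fold lower and the folate enzyme gene Mthfd2 at least 19.4-fold lower, both on the quantile scale of the authors and both detected in no Ago2-deficient oocyte. With cyclic loess their log2 differences were -2.65 and -2.12, where the quantile scale gave -4.44 and -4.28. Mthfd1, which also passes on folate-bound carbon, differed by -3.50. Mtrr, which keeps methionine synthase active, was the 1 higher gene at 2.64 (0.59 and not called with a common median), and was named after its value was seen. Slc19a1, a folate carrier, was not called at -0.22, nor was Mthfd1l at 1.04. Slc19a1 was called as lower with a common median (-3.53), unscaled (-2.42) and with centring on probes detected on all 6 (-1.32), and Mthfd1l as higher unscaled (1.39) and with that centring (2.50), and without mutant replicate 1 (1.86). The split of 1 higher and 7 lower was 0 and 10 under a common array median, 2 and 7 without scaling and 1 and 5 with cyclic loess, and also 1 and 5 without GV replicate 1 or without GV replicate 2.

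Imprinted genes, many of whose parental marks depend on these enzymes, had calls in both directions. Of 40 listed genes 32 were on the array and 12 were tested, with 5 higher, 3 lower and 4 not called, at a median of -0.63. The share called was 66.7%, beside 62.2% of all tested genes, which had 17.4% higher and 44.8% lower. Mest, which carries a maternal imprint, read 6.48 ± 0.08 in mutants and 11.00 ± 0.07 in GV oocytes on the log2 scale (SD, n = 3, adjusted p = 0.000121 from limma), was detected in no Ago2-deficient oocyte and was at least 22.9-fold lower on the quantile scale of the authors. Its log2 difference of -4.52 there was -2.67 with cyclic loess, -3.78 after centring on probes detected on all 6 and -5.99 with a common median, so the bound holds for that scale alone. Copg2, its neighbour, differed by -2.10 and lost its call with cyclic loess (-0.20) and after centring on probes detected on all 6 (-1.53, adjusted p = 0.0596 from limma). Cd81, a tetraspanin gene, was at least 15-fold higher and Dcn, a matrix proteoglycan gene, at least 15.3-fold higher on the quantile scale of the authors, both detected in no GV oocyte, in the group with the higher summed level of granulosa markers given above. Markers of other ovarian and blood cells were detected less often in that group. The part of either marker class in these values was not tested. Cd81 differed by 4.21 on the log2 scale, by 2.79 with a common median and by 2.99 with cyclic loess. Dcn differed by 4.13, by 2.85 with a common median and by 3.40 without Ago2-deficient replicate 3. The other higher genes were Cdkn1c (2.03), Rasgrf1 (1.72) and Nnat (1.30), and the other lower gene was Inpp5f, detected in no mutant oocyte and at least 3.41-fold lower on the quantile scale of the authors, all named after their values were seen. None of these was called under every scaling. Nnat was called as lower with a common median (-2.01) and not called unscaled (-0.90) or after centring on probes detected on all 6 (0.21). Cdkn1c stood at -0.81 with a common median and 0.30 unscaled, and Rasgrf1 at 0.17 and 1.28, none of them called. Leaving out a GV array ended the call of Nnat (each of the 3), Rasgrf1 (replicates 1 and 3) and Cdkn1c (replicate 1). Inpp5f was not called unscaled (-1.11) and had no difference left after that centring (limma adjusted p = 0.999). Gnas (-1.96, adjusted p = 0.116 from limma) and Ube3a (-0.58, adjusted p = 0.276) were not called. Both were detected in all 3 GV oocytes and in no mutant oocyte, and the groups of Gnas did not overlap. Gnas was called as lower with a common median (-4.57), no scaling (-3.47) and centring on probes detected on all 6 (-2.36), and without mutant replicate 2 (-2.86). Ube3a was called as lower with the first 2 of these settings (-3.29 and -2.19). The split of 5 higher and 3 lower was 2 and 7 with a common median and 2 and 5 without scaling. These values are RNA levels, and methylation at imprinted regions was not measured.

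**Figure D4:**
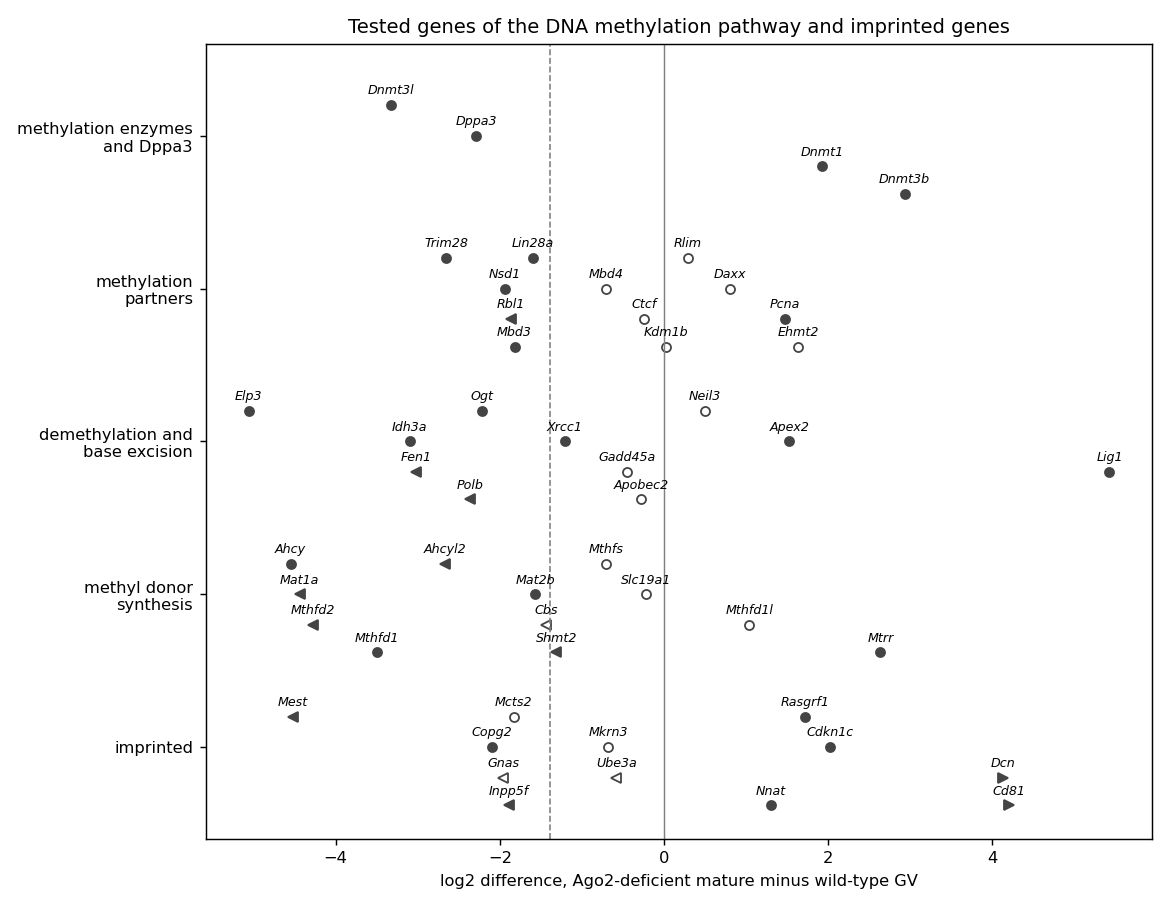
Log2 difference of each tested gene (horizontal axis, mutant minus GV), in the members and 4 related lists (rows, with points spread vertically for legibility); filled symbols are called, open symbols are not, left-pointing triangles were detected in no Ago2-deficient oocyte and right-pointing triangles in no GV oocyte. The dashed line marks the median of all tested genes at -1.39, a value that depends on the filter. Dnmt1 and Dnmt3b lie right of 0 with these values, and move to 0.08 and 0.05 where arrays share a common median.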

How the data were processed

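Total RNA of 1 oocyte per array was extracted with Trizol, labelled with digoxigenin by reverse and in vitro transcription per the labels, and hybridised to Applied Biosystems mouse arrays read by chemiluminescence. Per the methods, equal amounts of cDNA went into the in vitro transcription and equal amounts of labelled RNA onto the arrays. The signal intensity deposited by the authors is not scaled between arrays, and comes with a signal-to-noise score per probe and a flag code. The deposited log2 values had been quantile normalized by the authors over the 6 arrays, and the series table holds the same values with 2675 cells empty. The scanner software and background method are not given in the sources used here. Probe names came from the platform annotation, where 14411 probes carry 1 symbol, 247 carry several and are not named, and the rest carry none; the gene identifier of 14402 probes was found in the RefSeq table.

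Probes with a signal-to-noise of 3 or more on all 3 arrays of a group entered a limma 3.58.1 model without block (R 4.3.3, lmFit and eBayes), which gave 8018 probes and 7915 genes. Where several probes of 1 gene passed, that of highest mean stood for the gene. Calls needed an adjusted p under 0.05 and a fold over 2. The count of genes with an unadjusted p under 0.05 was 5303. Where every array of a group was below the limit, the fold is a bound, set on each dim array by the probe's own signal or the lowest detected signal, whichever was greater. Where the probe's own signal was the greater on each dim array, the bound equals the fold of the group means. It applies to the quantile scale of the authors. Undetected probes can exceed the lowest detected signal, as Dnmt1 did in Ago2-deficient replicate 1 (10.93 beside 6.13), so the bounds are approximate. The fit was run on simulated data with few changed probes, independent noise and the same spread in both groups. Most tested genes were called in the real data, so that run is no check of the scaling or of these calls. Promoter stretches were read from RefSeq, and figures were drawn with matplotlib 3.10.9 in Python 3.11.15. The number of arrays limits the precision.

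The members, lists and tests were chosen with earlier results of these data known. Genes named are all members, up to 4 called genes with the largest differences and 2 uncalled genes with the highest signal in each list, the 3 nearest genes of each called member, and others where the text says so. Alternatives covered scaling, background, filters, detection limit, variance model, the series table, the replicate block and each array left out in turn.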

Additional observations from a re-analysis of the deposited data

How the results depend on the processing

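All 4 tested members kept their call when any 1 array was left out, with log2 differences of 1.70 to 2.20 for Dnmt1, 2.71 to 3.17 for Dnmt3b, -3.49 to -3.15 for Dnmt3l and -2.66 to -2.00 for Dppa3. With arrays scaled to a common median the number of members called went from 4 to 2, with Dnmt1 at 0.08 and Dnmt3b at 0.05, and with no scaling also to 2, with Dnmt1 at 1.18 and Dnmt3b at 1.16. With a common median 10 methylation partners were called in place of 6. Among probes detected on all 6 arrays, a filter that tests fewer genes and drops Dnmt1 and Dnmt3l, 1671 genes were called in place of 4921, 2 members, 4 demethylation and base excision genes, 3 methyl donor genes and 3 imprinted genes. Of those 1671 genes 1128 were higher and 543 lower, so the mostly lower split of all genes depended on the filter. Leaving out 1 array gave 4231 to 5665 genes called, 4 to 7 methylation partners, 5 to 9 demethylation and base excision genes, 6 to 9 methyl donor genes and 6 to 10 imprinted genes. The split of all genes, 1378 higher and 3543 lower, became 311 and 6223 under a common median, 609 and 4778 unscaled, and 1952 and 2515 by cyclic loess. Deviations of same-numbered oocytes from their group means correlated at -0.0487, 0.0275 and -0.0339 across genes, so no pairing by number was seen. Whether same-numbered oocytes shared an animal was not tested. The replicate block called 4673 genes and 4 members, and ended the call of Nnat among the imprinted genes (limma adjusted p = 0.052). With it 7 genes in place of 8 were called in each of the demethylation, methyl donor and imprinted lists. The files name no slide or scan, so that alternative was not run. A probe below the detection limit, as for Uhrf1, Dnmt3a and the second Dnmt3b probe, gives no level, and a difference in such a gene was not detectable here.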
